A study of Mus musculus with 17 samples.

Results

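The collagen genes are described here in the epididymal fat (white adipose tissue next to the testis) of mice on high-fat diets that differed in glycemic index. A gene was taken as a collagen gene where its name in the scanner files, or its current symbol, was a collagen chain name such as Col1a1. Of 43 such genes on the array, 32 passed the filter that the Cy5 signal be well above background on at least 8 of 17 arrays, among 18134 genes tested in all. They comprise 11 fibrillar chains, 5 type IV chains, 4 type VI chains and 12 chains of other types, each represented by its probe of highest mean intensity. The rule used detection and intensity but not the difference between the diets, although the chains and their grouping were chosen with earlier results of these data known. The chains that did not pass are Col4a3, Col6a6, Col9a1, Col9a3, Col10a1, Col12a1, Col17a1, Col19a1, Col20a1, Col26a1 and Col28a1. At the edge of the filter, Col6a4 and Col23a1 were well above background on 12 arrays each and passed, while the best probe of Col17a1 was so on 6.

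The animals were adult male C57BL/6J mice on a purified diet in which fat supplied 30% of energy, eaten for 13 weeks. Its carbohydrate had a high glycemic index in the HGI group (9 mice) or a low glycemic index in the LGI group (8 mice), and both groups were wild type and ate high-fat food, so no low-fat group was compared. Glycemic index ranks carbohydrates by the rise in blood sugar that follows eating them. Every mouse had an Agilent array of its own, on which its RNA, in Cy5, competed with a common Cy3 pool, per the labels an equimolar pool of all HGI and LGI samples. A list of 3 epididymis genes (Lcn5, Lcn8 and Adam7) averaged between -4.34 and -3.77 against that pool in HGI mice and between -4.22 and -3.73 in LGI mice, HGI 9 and HGI 10 included, a level that an equal mixture of these 17 RNAs would not give. On this scale the pool held more of these transcripts than any of the 17 arrays shows, and how this came about was not tested. Every array shares the pool. Values are log2 ratios of a mouse to that pool, and a difference is the HGI mean minus the LGI mean on the same log2 scale. The study asked how the depot's transcripts change with glycemic index when fat intake is high. Samples carry replicate numbers but no other animal details in the labels, and p-values therefore cover only the spread among these samples.

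Collagens are triple-helical proteins of the extracellular matrix, each assembled from 3 chains in the endoplasmic reticulum before secretion. Fibrillar collagens form the tension-bearing fibres of the stroma, type IV collagens form the sheet-like network of basement membranes, which in fat surrounds each adipocyte and the capillaries, and type VI collagens form beaded microfilaments that lie next to the basement membrane. In adipose tissue most fibrillar collagen is made by fibroblast-like stromal cells, and expansion of the depot goes along with remodelling of this matrix.

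The share of gene spots well above background in Cy5 was 54.2% to 66.7% per array, and precision is limited by how many arrays there were. Of the 32 chains, 25 were well above background on all 17 arrays, and no spot of a chain was saturated. All 6 adipocyte markers examined (Adipoq, Plin1, Cidec, Lipe, Fabp4 and Pparg) were well above background on every array. The arrays labelled HGI 9 and HGI 10 stood apart from the others: across genes, their r with each other was 0.81, their r with the remaining 15 was -0.05 to 0.14, and r among those 15 was 0.37 to 0.83. A list of 6 seminal vesicle genes averaged 1.499 in HGI 9 and 1.544 in HGI 10, between -4.40 and -4.09 in the 7 other HGI mice and between -4.44 and -4.04 in LGI mice. A list of 6 smooth muscle genes averaged 1.47 and 1.32 on those 2 arrays, and between -1.10 and -0.69 in the 7 other HGI mice, against -1.39 to -0.58 in LGI mice. Each comparison is therefore given with and without HGI 9 and HGI 10, that is over 17 arrays and over 15.

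Over all 17 arrays, 22 of the 32 collagen chains had a higher mean in HGI than in LGI mice and 10 a lower one, and the differences ran from -0.15 to 0.29 with a median of 0.10. Over all genes tested, 52.6% had a higher mean in HGI and the median was 0.0058. In limma no gene of 18134 passed an adjusted p of 0.05, so no chain did either, which is a share called of 0% of all genes, while 1403 genes had an unadjusted p under 0.05. Among the chains that weaker criterion was met by 1 with a higher mean, Col5a2, where 3.96% of all genes met it, and by 1 with a lower mean, Col6a4, where 3.77% of all genes did. An exact permutation of the diet labels gave a p under 0.05 for 1 of the 32, Col6a4, and the share of all genes at that p was not computed. For all 32 chains the values of the 2 diets overlapped, and the share of all genes for which they did was not computed.

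**Figure D1:**
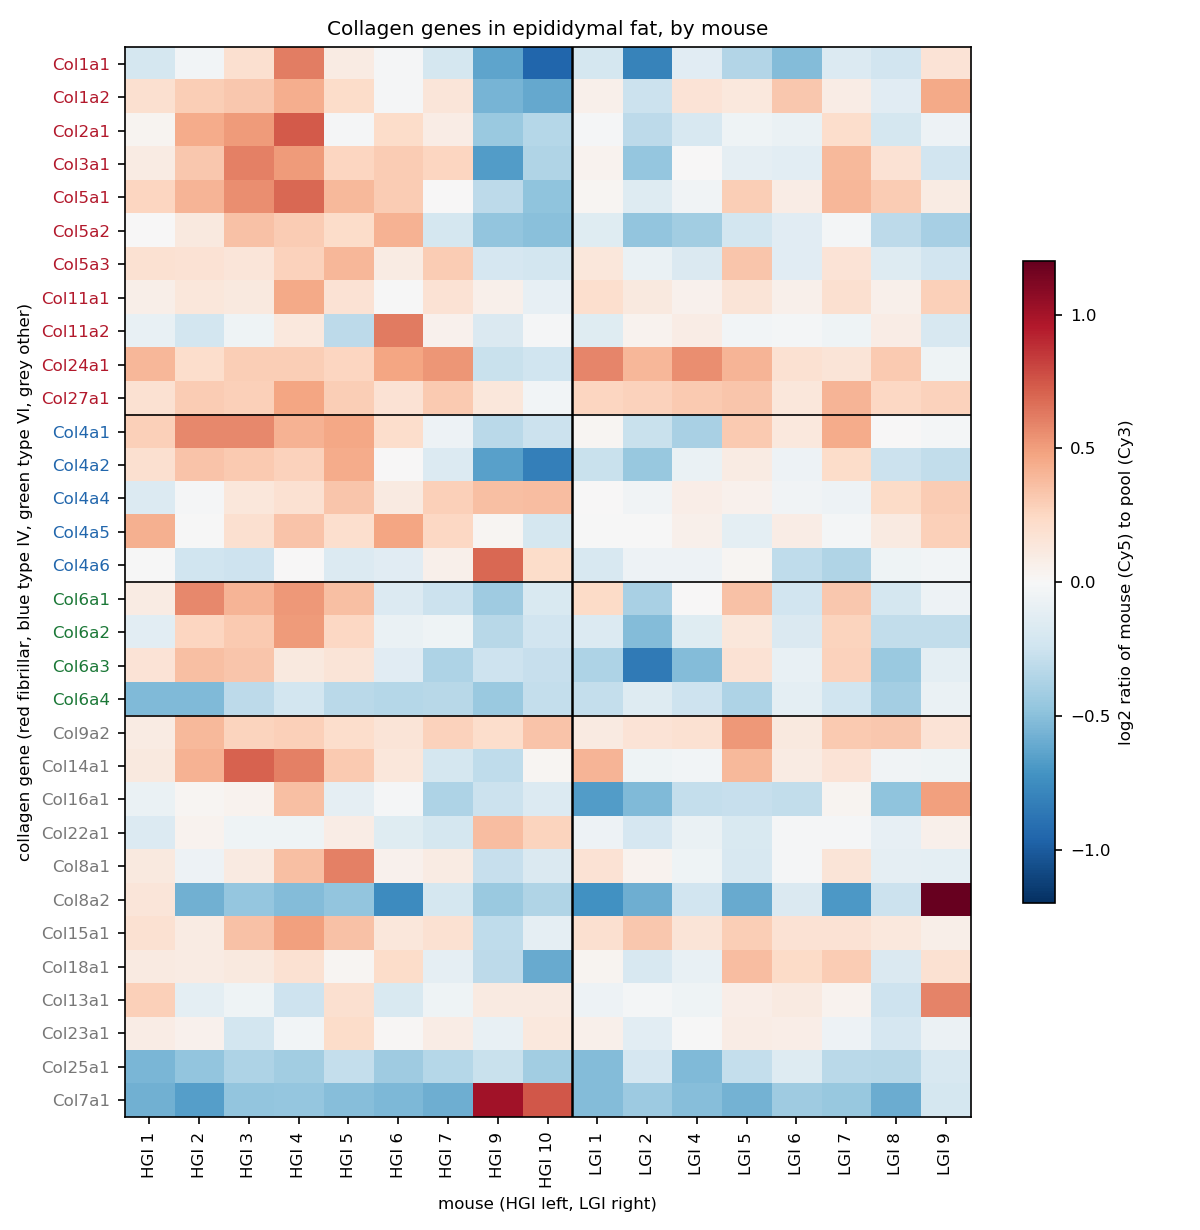
Log2 ratio of each mouse (Cy5) to the pool (Cy3), colour scale, for the 32 collagen chains (rows, grouped into fibrillar, type IV, type VI and other) in the 9 HGI mice (left) and the 8 LGI mice (right). HGI 9 and HGI 10 show low values for most fibrillar chains and high values for Col7a1, and LGI 9 shows a high value for Col8a2.

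Without HGI 9 and HGI 10, 27 chains had a higher mean in HGI mice and 5 a lower one, and the median difference was 0.10, against 0.00022 over all genes. In limma 0 of 18134 genes passed an adjusted p of 0.05, again 0% of all genes, and 1412 had an unadjusted p under 0.05. That weaker criterion was met by 12 chains, all with a higher mean in HGI: Col1a1, Col2a1, Col3a1, Col5a1, Col5a2, Col5a3, Col4a1, Col4a2, Col4a5, Col6a2, Col6a3 and Col8a1. Of all genes, 5.04% met it with a higher mean in HGI and 2.75% with a lower one, and no chain did with a lower one. The smallest adjusted p among the chains was 0.265 in limma, for Col5a2. The 12 chains were lower in both HGI 9 and HGI 10 than the median of the other 15 mice, and with these 2 arrays in the comparison the HGI mean moved down for each of them. The same count over all genes was not computed. An exact permutation of the diet labels gave a p under 0.05 for 12 chains, with Col6a4, which had a lower mean, in place of Col6a3. It used the same values, so it is no separate support, and its share over all genes was not computed. In 7 of the 12 chains named above, all 7 HGI mice lay above the LGI median, although the ranges of the 2 diets overlapped for every chain. The 12 were picked by these same values, so this count adds no support. Its share over all genes, and that of genes with overlapping ranges, was not computed.

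Counts by group of chains are given as descriptions, without a test between groups. The count is of chains with an unadjusted p under 0.05 in limma. Over 15 arrays it was 6 of 11 fibrillar, 3 of 5 type IV, 2 of 4 type VI and 1 of 12 other chains. All of these had a higher mean in HGI, and 5.04% of all genes met the criterion in that direction. Over 17 arrays the count was 1 of 11, 0 of 5, 1 of 4 and 0 of 12, against 7.74% of all genes in either direction. Median differences over 15 arrays were 0.24 for fibrillar, 0.22 for type IV, 0.26 for type VI and 0.0052 for the other chains. Over 17 arrays the same medians were 0.076, 0.14, 0.15 and 0.034. All 5 type IV chains had a higher mean in HGI mice in both sets of arrays, but in the authors' deposited table Col4a4 and Col4a5 had lower ones, as did Col4a6 over 15 arrays. All 11 fibrillar chains had a higher mean over 15 arrays, against 7 of them over 17, although Col11a1 turned to a lower one with median centring or Cy5 alone and Col27a1 with the scanner's processed signals.

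**Figure D2:**
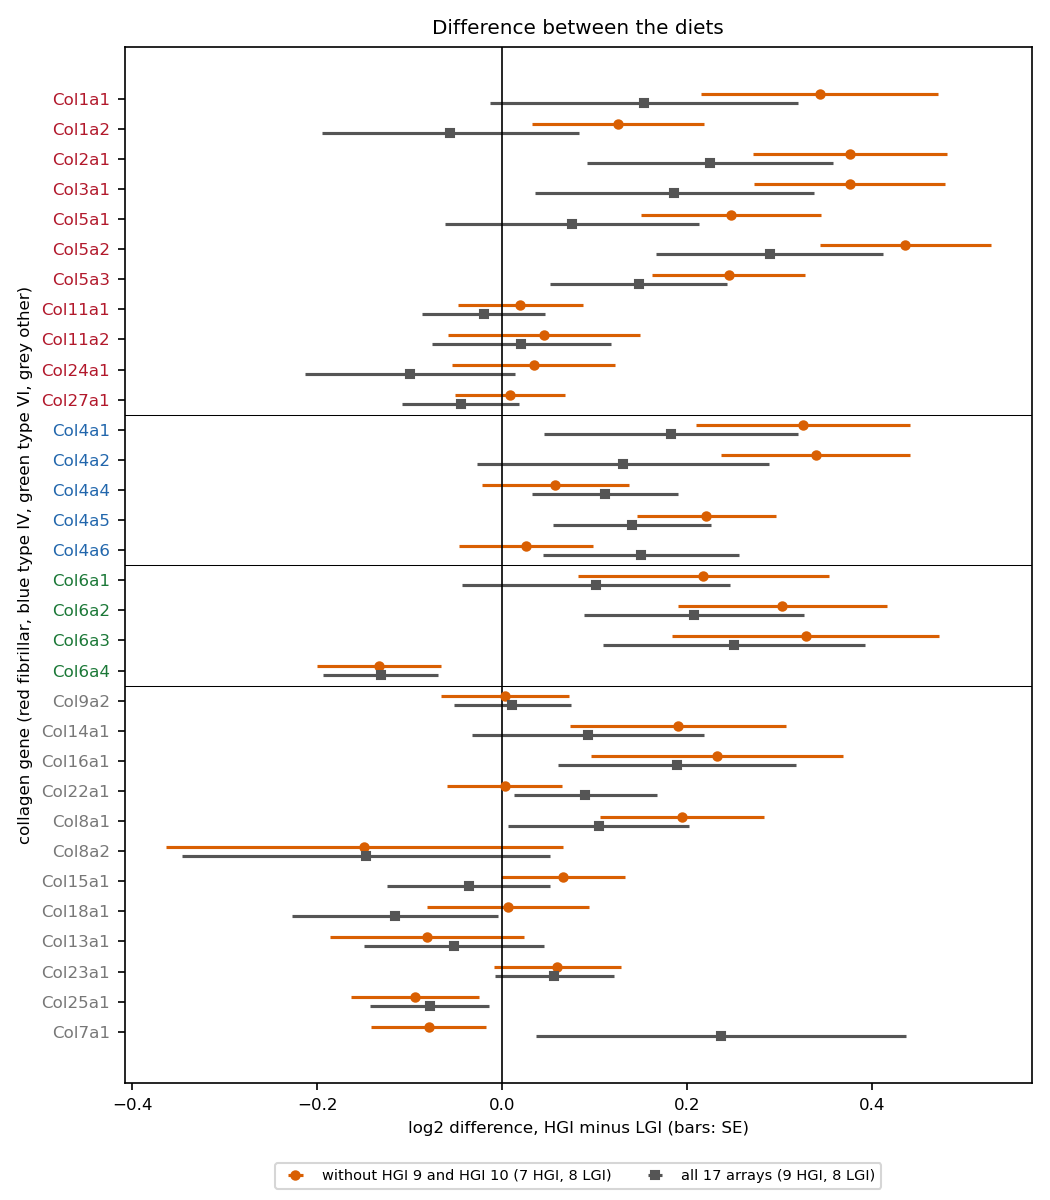
Log2 difference, HGI minus LGI, with its SE, for each of the 32 chains over 15 arrays without HGI 9 and HGI 10 (orange circles) and over all 17 arrays (grey squares). Col5a2 has the largest difference over 15 arrays (0.44), most fibrillar chains lie further right without HGI 9 and HGI 10, and Col7a1 changes sides.

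Of the fibrillar chains, those of types I, III and V are the major fibre components of connective tissue. Col5a2, a chain of type V collagen, which sits inside type I fibrils and limits their diameter, was between -0.21 and 0.42 in 7 HGI mice (median 0.22), at -0.47 in HGI 9 and -0.50 in HGI 10, against -0.48 to -0.020 in 8 LGI mice (median -0.27). HGI 6 was the highest mouse and HGI 10 the lowest, HGI 9 also lay below the LGI median, and HGI 7 lay just above it, so the groups overlapped. The difference was 0.29 ± 0.12 (SE) over 17 arrays, with an exact permutation p of 0.0504 and an adjusted p of 0.597 in limma. Over 15 arrays it was 0.44 ± 0.092, a 1.35-fold higher mean in HGI, with an exact permutation p of 0.00171 and an adjusted p of 0.265 in limma. When HGI 7 was left out as well, Col5a2 rose by 0.50 and its adjusted p of 0.0277 in limma was past the threshold, along with 10 other genes of the whole table. Leaving out any other of the 15 mice gave no such call for a collagen chain. Its partner Col5a1 was between 0.0029 and 0.69 in 7 HGI mice (median 0.39), at -0.31 in HGI 9 and -0.48 in HGI 10, against -0.16 to 0.39 in 8 LGI mice (median 0.094). The Col5a1 difference of 0.076 ± 0.14 over 17 arrays became 0.25 ± 0.10 over 15 (exact permutation p = 0.0382, adjusted p = 0.555 in limma). A second Col5a1 probe gave smaller values, 0.018 and 0.11. Col5a3, the remaining type V chain, was between 0.10 and 0.40 in 7 HGI mice (median 0.18), at -0.20 in HGI 9 and -0.22 in HGI 10, against -0.23 to 0.33 in 8 LGI mice (median -0.11). Its difference was 0.15 ± 0.10 over 17 arrays and 0.24 ± 0.083 over 15 (exact permutation p = 0.0155, adjusted p = 0.54 in limma), although the highest LGI mouse lay above 6 of these 7 HGI mice.

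Type I collagen, the most abundant collagen of connective tissue, is built from Col1a1 and Col1a2. Col1a1 was between -0.21 and 0.62 in 7 HGI mice (median -0.014), at -0.64 in HGI 9 and -0.95 in HGI 10, against -0.80 to 0.17 in 8 LGI mice (median -0.22). HGI 4 was the highest mouse and HGI 10 the lowest, with LGI 2 next to HGI 10, so the groups overlapped widely. The Col1a1 difference was 0.15 ± 0.17 over 17 arrays (exact permutation p = 0.43) and 0.34 ± 0.13 over 15 (exact permutation p = 0.0325, adjusted p = 0.545 in limma). A further Col1a1 probe gave 0.074 and 0.19. Col1a2 was between -0.011 and 0.43 in 7 HGI mice (median 0.22), at -0.56 in HGI 9 and -0.62 in HGI 10, against -0.26 to 0.45 in 8 LGI mice (median 0.11). HGI 9 and HGI 10 were its 2 lowest mice, and the difference was -0.056 ± 0.14 over 17 arrays and 0.13 ± 0.093 over 15, with neither past an unadjusted p of 0.05. Col3a1, which encodes the single chain of type III collagen, was between 0.10 and 0.60 in 7 HGI mice (median 0.30), at -0.67 in HGI 9 and -0.36 in HGI 10, against -0.46 to 0.39 in 8 LGI mice (median -0.049). Its difference was 0.19 ± 0.15 over 17 arrays and 0.38 ± 0.10 over 15 (exact permutation p = 0.00684, adjusted p = 0.495 in limma). The 2 Col3a1 probes disagreed: the other one differed by -0.047 and -0.035, so the direction for Col3a1 rests on the brighter probe.

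**Figure D3:**
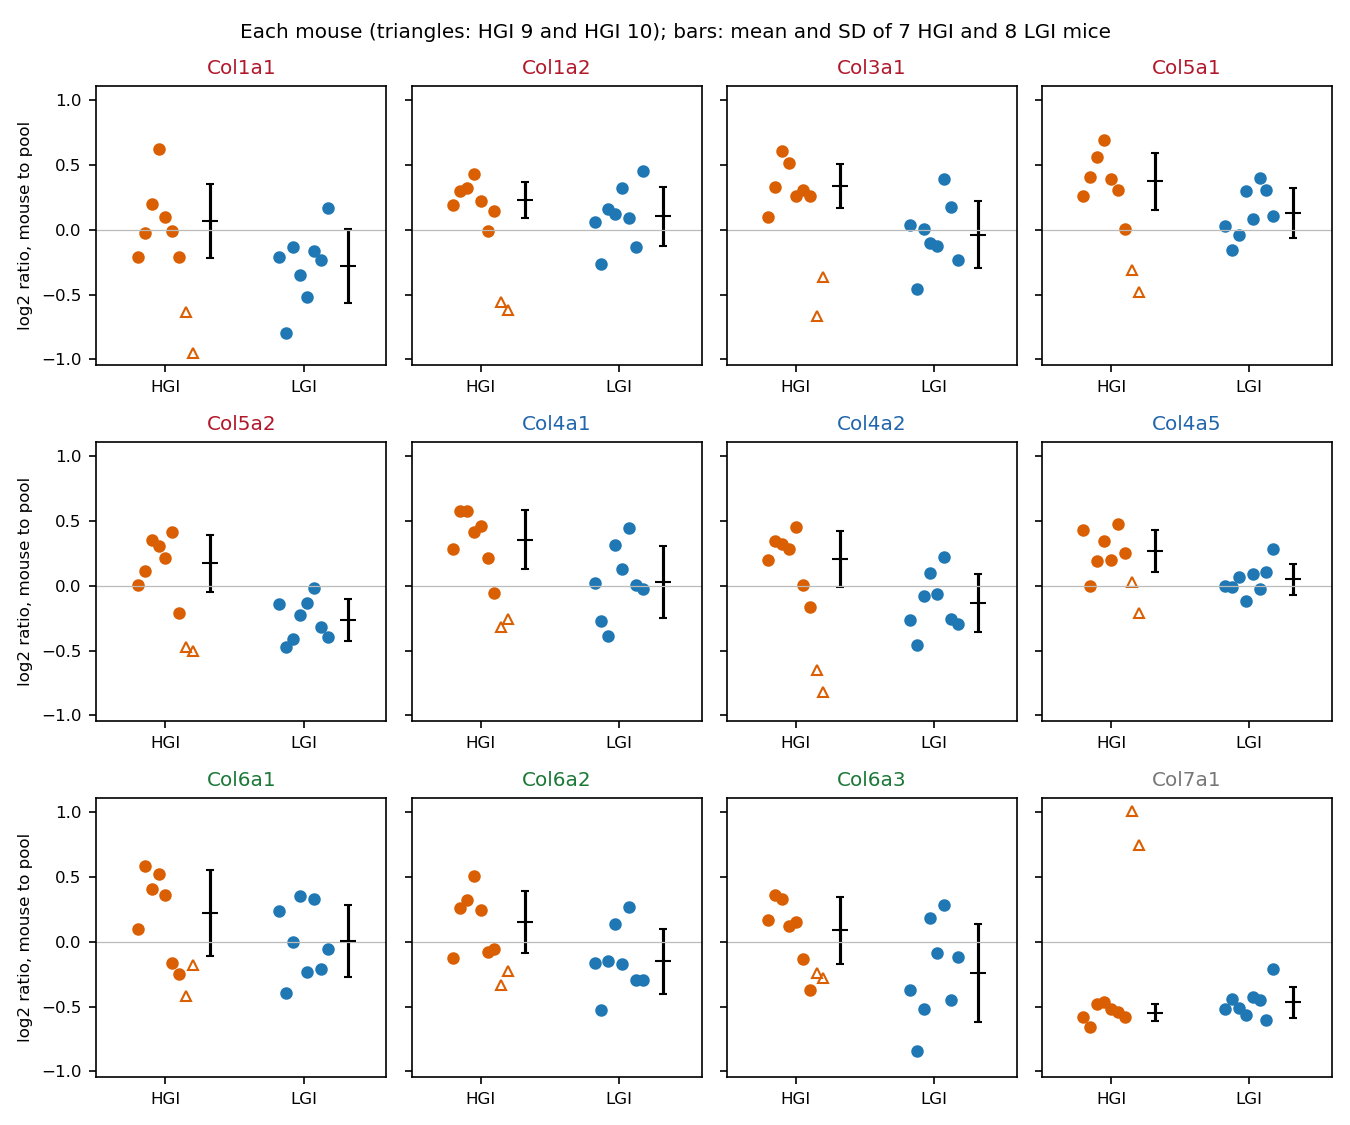
Log2 ratio to the pool of each mouse for 12 chains, HGI left and LGI right in each panel, with open triangles for HGI 9 and HGI 10 and bars for the mean and SD of the 7 other HGI mice and the 8 LGI mice. HGI 9 and HGI 10 lie low for the fibrillar chains and Col4a2 and high for Col7a1, and the ranges of the 2 diets overlap in every panel.

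The fibrillar chains with promoter entries in RefSeq (build GRCm38.p6) differ in their proximal sequence, and that of Col1a2 and Col3a1 is shown because these chains go into the same fibres while their upstream letters hold different short motifs. Each run covers the 250 bases before the annotated start, on the plus strand, at chr6:4505368-4505617 for Col1a2 and at chr1:45311288-45311537 for Col3a1. Capitals mark the match to CCAAT in Col1a2 and to TATAAA in Col3a1, whatever its distance from the start.
Col1a2: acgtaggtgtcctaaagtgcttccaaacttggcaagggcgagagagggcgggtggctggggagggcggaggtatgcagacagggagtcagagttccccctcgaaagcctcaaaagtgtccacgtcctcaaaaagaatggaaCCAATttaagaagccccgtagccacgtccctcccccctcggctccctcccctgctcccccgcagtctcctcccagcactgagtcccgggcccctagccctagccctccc
Col3a1: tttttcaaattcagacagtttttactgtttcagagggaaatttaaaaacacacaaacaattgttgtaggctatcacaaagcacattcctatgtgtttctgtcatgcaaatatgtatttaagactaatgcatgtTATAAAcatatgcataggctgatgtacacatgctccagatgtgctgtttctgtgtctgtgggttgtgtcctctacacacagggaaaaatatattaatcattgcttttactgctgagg
Of the 32 chains 27 had an entry, and all 27025 gene entries served for comparison, with both strands searched over the 250 bases before each start. CCAAT was in 11 of 27 collagen promoters (40.7%), against 37.5% of all. TATAAA was in 3 (11.1%), against 14.3% of all. GGGCGG, the core of the GC box, was in 19 (70.4%), against 35.4% of all. A match is a description of letters and no evidence of binding, and Col1a1, Col2a1, Col5a2, Col14a1 and Col22a1 were not among the entries.

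The remaining fibrillar chains are known mainly from cartilage or as minor fibril components. Col2a1, the main collagen of cartilage, was between -0.014 and 0.74 in 7 HGI mice (median 0.22), at -0.45 in HGI 9 and -0.34 in HGI 10, against -0.32 to 0.21 in 8 LGI mice (median -0.071). Its difference was 0.22 ± 0.13 over 17 arrays and 0.38 ± 0.10 over 15 (exact permutation p = 0.00528, adjusted p = 0.495 in limma). The 3 Col2a1 probes disagreed, since the others gave 0.041 and -0.22 over 15 arrays and correlated at 0.17 and -0.24 with the probe used, so no direction is given for this gene. Differences of Col11a1, Col11a2, Col24a1 and Col27a1 lay between -0.10 and 0.021 over 17 arrays and between 0.0084 and 0.045 over 15. Second probes of Col11a2 and Col27a1, well above background on 10 and 9 arrays, gave 0.12 and 0.077 over 17 arrays and 0.13 each over 15. For Col24a1, HGI 9 and HGI 10 were the 2 lowest mice.

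Type IV collagen exists in several trimers, of which the one made from Col4a1 and Col4a2 is found in nearly all basement membranes. Col4a1 was between -0.058 and 0.58 in 7 HGI mice (median 0.42), at -0.32 in HGI 9 and -0.26 in HGI 10, against -0.39 to 0.44 in 8 LGI mice (median 0.012). HGI 2 and HGI 3 were highest and LGI 4 lowest, and LGI 7 lay within the upper HGI mice. The Col4a1 difference was 0.18 ± 0.14 over 17 arrays and 0.33 ± 0.12 over 15 (exact permutation p = 0.0305, adjusted p = 0.545 in limma). Col4a2 was between -0.17 and 0.45 in 7 HGI mice (median 0.28), at -0.65 in HGI 9 and -0.82 in HGI 10, against -0.45 to 0.22 in 8 LGI mice (median -0.17). HGI 9 and HGI 10 were the 2 lowest mice for Col4a2, and the lowest of the other HGI mice lay close to the LGI median. Its difference was 0.13 ± 0.16 over 17 arrays and 0.34 ± 0.10 over 15 (exact permutation p = 0.0135, adjusted p = 0.511 in limma). A second probe gave smaller values for both chains: 0.11 and 0.25 for Col4a1, and -0.025 and 0.14 for Col4a2.

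Col4a1 and Col4a2 lie head to head on mouse chromosome 8. In the RefSeq promoter entries (GRCm38.p6), the Col4a2 start on the plus strand at 11312805 and the Col4a1 start on the minus strand at 11312826 are 21 bases apart, so the 2 genes share the sequence around them. A stretch of 30 bases at chr8:11312761-11312790, written on the plus strand, is shown because it lies by both starts, with the CCAAT match in capitals.
Col4a1-Col4a2: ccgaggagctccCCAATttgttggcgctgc
The match begins 32 bases before the Col4a2 start and 53 bases inside the Col4a1 start, and nothing is drawn from it about any factor.

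Col4a5 and Col4a6, X-linked neighbours whose chains assemble in the basement membranes of epithelia and smooth muscle, had near-equal differences over 17 arrays and unequal ones over 15. Col4a5 was between -0.00094 and 0.47 in 7 HGI mice (median 0.25), at 0.025 in HGI 9 and -0.21 in HGI 10, against -0.12 to 0.28 in 8 LGI mice (median 0.029), and its difference was 0.14 ± 0.086 over 17 arrays and 0.22 ± 0.075 over 15 (exact permutation p = 0.0117, adjusted p = 0.54 in limma). In the authors' deposited table, Col4a5 gave the opposite sign, -0.14 over 17 arrays and -0.062 over 15. Col4a6 was between -0.25 and 0.064 in 7 HGI mice (median -0.13), at 0.69 in HGI 9 and 0.22 in HGI 10, against -0.36 to 0.021 in 8 LGI mice (median -0.060), with HGI 9 the highest of all mice. The Col4a6 difference was 0.15 ± 0.11 over 17 arrays and 0.026 ± 0.072 over 15, and its second probe gave -0.083 and -0.14. Col4a4, a chain best known from the kidney glomerulus, differed by 0.11 ± 0.079 and 0.058 ± 0.080, and its second probe by -0.13 and -0.080.

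Type VI collagen is built from Col6a1, Col6a2 and one more chain, usually Col6a3, whose cleaved end is the adipose-derived peptide endotrophin. Col6a3 was between -0.37 and 0.36 in 7 HGI mice (median 0.15), at -0.25 in HGI 9 and -0.28 in HGI 10, against -0.84 to 0.28 in 8 LGI mice (median -0.24). LGI 2 was the lowest mouse, followed by LGI 4, while LGI 5 and LGI 7 lay among the upper HGI mice. The Col6a3 difference was 0.25 ± 0.14 over 17 arrays and 0.33 ± 0.14 over 15 (exact permutation p = 0.073, adjusted p = 0.598 in limma). Col6a2 was between -0.13 and 0.51 in 7 HGI mice (median 0.24), at -0.33 in HGI 9 and -0.23 in HGI 10, against -0.52 to 0.27 in 8 LGI mice (median -0.17). Its difference was 0.21 ± 0.12 over 17 arrays and 0.30 ± 0.11 over 15 (exact permutation p = 0.0356, adjusted p = 0.545 in limma), and a second probe gave 0.14 and 0.25. Col6a1 was between -0.25 and 0.58 in 7 HGI mice (median 0.36), at -0.42 in HGI 9 and -0.18 in HGI 10, against -0.39 to 0.35 in 8 LGI mice (median -0.030). HGI 9 was its lowest mouse, followed by LGI 2 and HGI 7. The Col6a1 difference was 0.10 ± 0.14 over 17 arrays and 0.22 ± 0.14 over 15 (exact permutation p = 0.186, adjusted p = 0.745 in limma).

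Col6a4, named 1110001D15Rik in the files, was the single chain with a lower mean in HGI mice at an unadjusted p under 0.05 in limma over 17 arrays. It was between -0.53 and -0.22 in 7 HGI mice (median -0.34), at -0.44 in HGI 9 and -0.28 in HGI 10, against -0.40 to -0.081 in 8 LGI mice (median -0.25), and all values lay below the pool. The difference was -0.13 ± 0.062 over 17 arrays (exact permutation p = 0.0299, adjusted p = 0.643 in limma). Over 15 arrays it was -0.13 ± 0.067 (exact permutation p = 0.0463, unadjusted p = 0.061 and adjusted p = 0.665 in limma). With median centring, scaling between arrays, Cy5 alone, no background correction or the scanner's processed signals over 17 arrays, Col6a4 did not meet that criterion. Of the HGI mice 1 lay above the LGI median. Its signal was well above background in 5 HGI and 7 LGI arrays, so part of its values are near the detection limit.

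Among the other chains, Col8a1, a short-chain collagen of vessel walls, was between -0.064 and 0.60 in 7 HGI mice (median 0.11), at -0.27 in HGI 9 and -0.17 in HGI 10, against -0.19 to 0.18 in 8 LGI mice (median -0.032). HGI 5 was the highest mouse, and the difference was 0.10 ± 0.10 over 17 arrays and 0.19 ± 0.089 over 15 (exact permutation p = 0.0494, adjusted p = 0.611 in limma). Its partner Col8a2 differed by -0.15 ± 0.21 over 15 arrays, with the largest SE of the 32 chains. For Col8a2, LGI 9 stood at 1.19 and the other LGI mice between -0.73 and -0.18. Without LGI 9 as well, the Col8a2 difference was 0.06. Of the chains that attach to fibril surfaces, Col14a1 differed by 0.19 ± 0.12 and Col16a1 by 0.23 ± 0.14 over 15 arrays. Col9a2 and Col22a1 differed by 0.0036 and 0.0031. The basement membrane zone collagens Col15a1 and Col18a1, of which Col18a1 is the source of endostatin, differed by 0.066 ± 0.067 and 0.0068 ± 0.087. The membrane-spanning chains Col13a1, Col23a1 and Col25a1 lay between -0.094 and 0.060.

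Col7a1, the anchoring fibril collagen that fastens epithelial basement membranes to the stroma, had the largest departure in HGI 9 and HGI 10. It was between -0.66 and -0.47 in 7 HGI mice (median -0.54), at 1.01 in HGI 9 and 0.75 in HGI 10, against -0.60 to -0.21 in 8 LGI mice (median -0.48). The Col7a1 difference of 0.24 ± 0.20 over 17 arrays became -0.079 ± 0.062 over 15, with the sign turned.

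On the 2 arrays with seminal vesicle transcripts, collagen chains departed from the other mice in both directions. HGI 9 and HGI 10 were both below the median of the other 15 mice for 21 of 32 chains and both above it for 6. The same counts over all genes were not computed, so nothing particular to collagens is read from them. HGI 9 and HGI 10 were the 2 lowest of all mice for 8 chains (25.0%), where this held for 5.33% of all genes: Col1a2, Col2a1, Col5a1, Col24a1, Col27a1, Col4a2, Col15a1 and Col18a1. They were the 2 highest for 4 chains (12.5%), where this held for 11.0% of all genes: Col4a4, Col4a6, Col22a1 and Col7a1. These arrays were singled out after their values were seen, so the counts have no test. Col1a2 lay 0.72 below the median in HGI 9 and 0.78 below it in HGI 10, and Col7a1 lay 1.52 and 1.26 above it. In bulk tissue, fewer cells of a type and less RNA per cell cannot be told apart, and the part of the seminal vesicle and smooth muscle transcripts in these values was not tested.

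**Figure D4:**
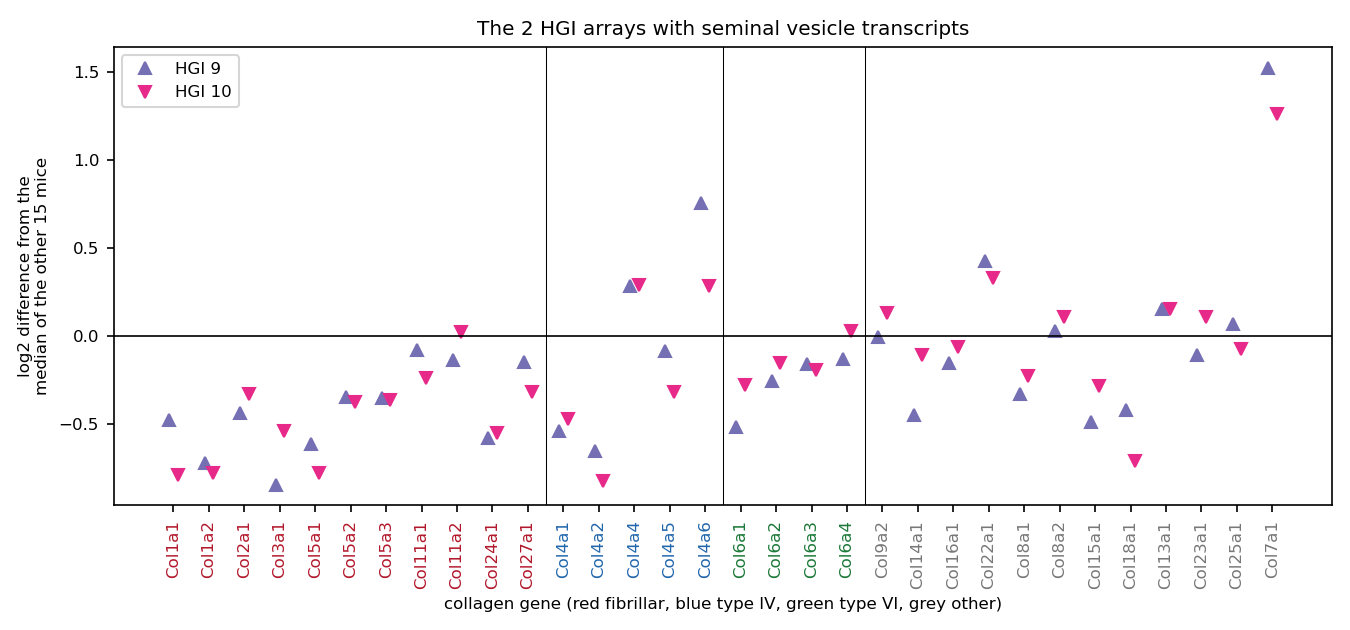
Log2 difference of HGI 9 (upward triangles) and HGI 10 (downward triangles) from the median of the other 15 mice, for each of the 32 chains. Most fibrillar chains lie below 0 on both arrays, and Col4a4, Col4a6, Col22a1 and Col7a1 lie above 0 on both, with Col7a1 the highest (1.52 and 1.26).

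Of 7 pairs of chains that assemble into one protein, 4 varied together across mice and kept an r of at least 0.68 without the 2 farthest mice. Chains that do not assemble together were paired only with Col1a1, so whether such co-variation is particular to partner chains was not tested. Over 15 mice Col4a1 and Col4a2 correlated at r = 0.86 and rho = 0.90 (adjusted permutation p = 0.00039 for each, over 13 pairs computed). Without the 2 mice farthest from the Col4a1 median, LGI 2 and LGI 4, r was 0.95, and within the earlier-scanned 7 and the later-scanned 8 mice it was 0.96 and 0.78. Col6a1 and Col6a2 correlated at r = 0.87 and rho = 0.80 (permutation p = 6.00e-05, adjusted p = 0.00039 for r), with 0.83 without HGI 2 and LGI 2 and 0.95 and 0.80 in the earlier and later scans. Col6a1 and Col6a3 correlated at r = 0.79 and rho = 0.78 (adjusted permutation p = 0.00182 for r), with 0.68 without HGI 2 and LGI 2 and 0.88 and 0.79 in the earlier and later scans. Col5a1 and Col5a2 correlated at r = 0.79 and rho = 0.74 (adjusted permutation p = 0.00182 for r), with 0.71 without HGI 4 and LGI 2 and 0.92 and 0.68 in the earlier and later scans. The adjusted permutation p for rho was 0.00399 for both type VI pairs and 0.00686 for the type V pair. These 4 pairs, and Col1a1 with Col1a2, kept an adjusted permutation p under 0.05 when each diet's mean was subtracted first.

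Pairs with Col1a1 had a lower r without the 2 mice farthest from its median, HGI 4 and LGI 2, which are the ends of its range over 15 mice. Col1a1 correlated with Col3a1 at r = 0.70 and rho = 0.65 (adjusted permutation p = 0.00931 for r), and with Col1a2 at r = 0.68 and rho = 0.59 (adjusted permutation p = 0.00931 for r). Without HGI 4 and LGI 2 r became 0.44 and 0.34 (permutation p = 0.135 and 0.255), so the size of r rests in part on those mice, and leaving out the ends of a range by itself lowers r. In the earlier and later scans r was 0.65 and 0.81 for Col3a1 and 0.74 and 0.70 for Col1a2. With each diet's mean subtracted, the adjusted permutation p was 0.0621 for Col3a1 and 0.0289 for Col1a2. With Col6a1 (r = 0.61, rho = 0.59), with Serpinh1, the collagen chaperone (r = 0.68, rho = 0.65), and with Sparc, a collagen-binding matrix protein (r = 0.66, rho = 0.61), Col1a1 had adjusted permutation p-values for r of 0.0175, 0.00931 and 0.00931. For these 3 pairs r without HGI 4 and LGI 2 was 0.35, 0.28 and 0.43, with the same limit. In the earlier and later scans r was 0.79 and 0.44 with Col6a1, 0.50 and 0.95 with Serpinh1 and 0.85 and 0.51 with Sparc. For the 5 Col1a1 pairs past the threshold, adjusted permutation p for rho lay between 0.0227 and 0.0331. The pairs of Col1a1 with Col4a1 (r = 0.50, rho = 0.45) and with Lox (r = 0.37, rho = 0.38), of Col4a5 with Col4a6 (r = 0.32, rho = 0.34) and of Col8a1 with Col8a2 (r = -0.28, rho = -0.23) had adjusted permutation p-values for r of 0.0749, 0.218, 0.261 and 0.271. Over all 17 arrays, HGI 9 and HGI 10 included, Col1a1 passed the threshold with Col4a1 (r = 0.63, adjusted permutation p = 0.00948) and with Lox (r = 0.55, adjusted permutation p = 0.0241).

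**Figure D5:**
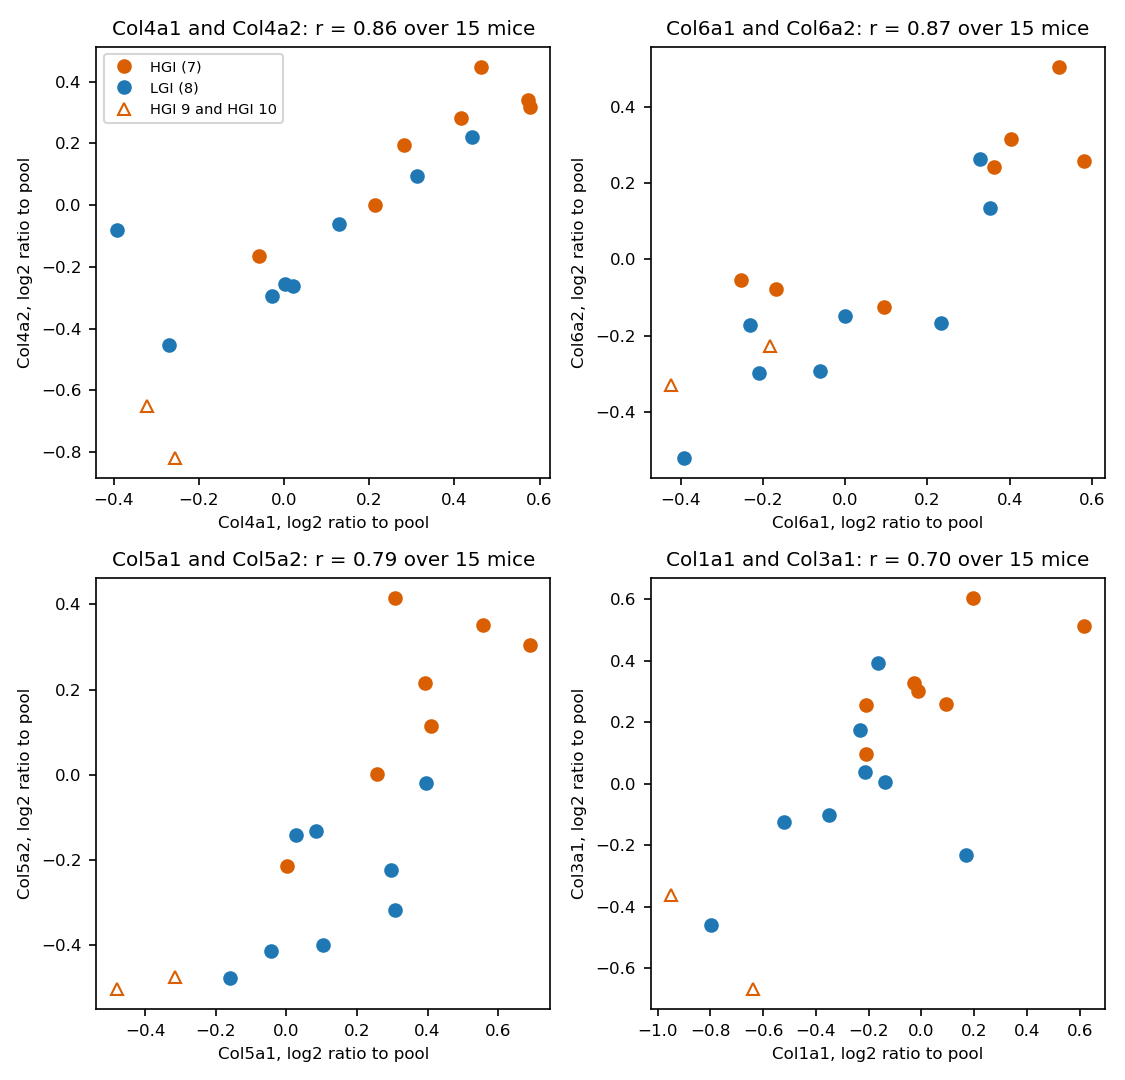
Log2 ratios to the pool of 4 pairs of chains in 7 HGI mice (orange), 8 LGI mice (blue) and in HGI 9 and HGI 10 (open triangles), with r over 15 mice in each title. Col4a1 and Col4a2 lie near 1 line in both diets (r = 0.86), while for Col1a1 and Col3a1 HGI 4 at the top right and LGI 2 at the bottom left lie far from the other mice (r = 0.70).

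Spread between mice of a diet was summarised as an SD for each gene. Its median was 0.25 for the 32 chains and 0.17 for all genes over 17 arrays, and 0.19 and 0.15 over 15. Type VI chains had the largest median SD over 15 arrays (0.27), and the fibrillar, type IV and other chains had 0.19, 0.15 and 0.15. These are descriptions with no test.

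Genes that make, secrete, cross-link or bind collagen were followed from 7 lists of 48 genes, of which 42 were tested. Over 17 arrays 24 had a higher mean in HGI mice, with 2 at an unadjusted p under 0.05 in that direction and 2 in the other. Over 15 arrays 30 had a higher mean, with 5 at an unadjusted p under 0.05 and 1 with a lower mean. Genes at that criterion were thus 9.52% of the lists over 17 arrays, near the 7.74% of all genes, and 14.3% over 15, against 7.79% of all genes. None passed an adjusted p of 0.05 in limma. Ppib, a proline isomerase of the endoplasmic reticulum that acts on collagen, differed by 0.34 ± 0.092 over 17 arrays (adjusted p = 0.522 in limma) and 0.26 ± 0.085 over 15. P4hb, a subunit of prolyl hydroxylase, differed by 0.40 ± 0.16 over 17 arrays (adjusted p = 0.583 in limma) and 0.17 ± 0.093 over 15. Over 15 arrays the lysyl hydroxylase Plod1 differed by 0.16 ± 0.075, the chaperone Serpinh1 by 0.33 ± 0.12, the procollagen proteinase enhancer Pcolce2 by 0.51 ± 0.16 and the cross-linking enzyme Lox by 0.18 ± 0.083. Lower means in HGI mice were those of Mia2, which takes part in collagen export from the endoplasmic reticulum (-0.23 ± 0.090 and -0.22 ± 0.10 over 17 and 15 arrays), and of Itga1, a chain of a collagen-binding integrin (-0.21 ± 0.10 and -0.14 ± 0.093). Of the lists with no gene at that criterion, Fmod and Dcn among the fibril-associated proteoglycans differed by -0.20 and -0.15 over 17 arrays, and Tgfb3 and Tgfb2 among the inducers by 0.13 and 0.11. Over 17 arrays Pcolce2 differed by 0.29, Serpinh1 by 0.21 and Lox by 0.073.

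Markers of the cell types of the depot were compared in the same mice. A list of 8 fibroblast and progenitor genes averaged between -0.08 and 0.16 in the 7 HGI mice, at -0.14 in HGI 9 and -0.10 in HGI 10, against -0.16 to 0.10 in LGI mice, and 6 of the 8 had a higher mean in HGI in both sets of arrays. Over 17 arrays that count was 3 of 8 in the authors' deposited table, 4 without HGI 3, 5 in the earlier scans and 8 in the later ones, and over 15 arrays the alternatives gave 5 to 7. Mfap5 of this list was higher at an unadjusted p under 0.05 in limma over 17 arrays (0.18 ± 0.080, adjusted p = 0.614), and no gene of it was over 15. All 7 macrophage genes had a higher mean in HGI in both sets of arrays, with Mpeg1 at an unadjusted p under 0.05. Over 17 arrays that count was 3 of 7 in the earlier scans, 4 with scaling between arrays, 5 without HGI 4 or with Cy5 alone and 6 or 7 under the other alternatives, and over 15 arrays it was 6 in the earlier scans and 7 otherwise. The macrophage list averaged 0.60 in HGI 4, the mouse with the highest Col1a1, between -0.07 and 0.26 in the 6 other HGI mice without HGI 9 and HGI 10, against -0.16 to 0.10 in LGI mice. The endothelial list averaged -0.35 in HGI 9 and -0.25 in HGI 10, and between 0.06 and 0.24 in the 7 other HGI mice, against 0.02 to 0.21 in LGI mice. Of its 6 genes, 5 had a lower mean in HGI over 17 arrays, while 4 had a higher one over 15. Kdr was lower at an unadjusted p under 0.05 in limma in both sets (-0.27 ± 0.086 over 17 arrays and -0.21 ± 0.086 over 15). Its adjusted p in limma was 0.522 and 0.555. All 5 mesothelial genes had a lower mean in HGI in both sets of arrays, 3 of them at an unadjusted p under 0.05. Of all genes, 3.77% met that criterion with a lower mean in HGI over 17 arrays and 2.75% over 15. With a higher mean, 3.96% and 5.04% of all genes did. Adipocyte genes lay the other way from most collagen chains: 5 of 6 had a lower mean in HGI in both sets of arrays, with a median difference of -0.13 over 17 and -0.15 over 15, although over 15 arrays 1 of 6 did with median centring, 3 in the earlier scans and 4 with Cy5 alone. The list averaged between -0.11 and -0.02 in the 7 HGI mice, at -0.23 in HGI 9 and -0.18 in HGI 10, against -0.23 to 0.18 in LGI mice. At an unadjusted p under 0.05 were Plin1, a lipid droplet protein, over 17 arrays (-0.22 ± 0.095, adjusted p = 0.617 in limma) and Fabp4, a fatty acid carrier, over 15 (-0.17 ± 0.072, adjusted p = 0.578 in limma). The part of these cell types in the collagen values was not tested.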

How the data were processed

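Expression was measured in 17 mice on 2-colour Agilent arrays, 9 HGI and 8 LGI. Per the file headers, the deposited files hold spot intensity values in Cy5 and Cy3 written by Agilent Feature Extraction (9.1.3.1 in the headers, 9.5.1.1 in the submitters' processing notes). The authors also deposited log2 values, whose normalization is not given in the sources used here, and these were used as an alternative only. The work was done with limma (version 3.58.1) in R (version 4.3.3), with Python for pairs and plots. Steps were normexp background correction with an offset of 50, loess within arrays, control and outlier-flagged spots left out, and spots of a probe averaged, the brightest tested probe standing for its gene. Probes needed a Cy5 signal above background by the scanner's flag in 8 or more arrays. That left 25515 of 41174 probes and 18134 genes, named through RefSeq (GRCm38.p6).

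The diets were compared by limma's moderated test with no covariate and with p adjusted by Benjamini-Hochberg over all 18134 genes, over 17 arrays and without HGI 9 and HGI 10. Exact permutation tests used 24310 and 6435 splits of the arrays. Correlations over 15 mice used 100000 permutations, adjusted over 13 pairs. Members, groups and lists were chosen with earlier results of these data known. Values are given for the main chains of types I, III, IV, V and VI and for chains with an unadjusted p under 0.05, and a chain outside these is given by its difference. Of each pathway list, genes at that criterion or otherwise the 2 with the smallest p are named. All arrays were scanned on 1 day, and the earlier 8 and later 9 scans were compared, which the labels do not call batches.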

Additional observations from a re-analysis of the deposited data

Results flagged for a closer look

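Within each diet, the highest or lowest mouse of each of the 32 chains was set against the spread of the others, which gave 64 groups of values, and 6 had a mouse far from the rest. Chance flags about 1 in 20 such groups. Col11a1, the minor fibrillar chain, stood at 0.46 in HGI 4, and the other HGI mice lay between -0.10 and 0.17. Col11a2, another chain of type XI collagen, stood at 0.62 in HGI 6, and the other HGI mice lay between -0.32 and 0.13. Col4a6, the X-linked type IV chain, stood at 0.69 in HGI 9, and the other HGI mice lay between -0.25 and 0.22. Col8a2, the short-chain collagen of Descemet's membrane, stood at 1.19 in LGI 9, and the other LGI mice lay between -0.73 and -0.18. Col13a1, a membrane-spanning collagen, stood at 0.60 in LGI 9, and the other LGI mice lay between -0.25 and 0.11. Col7a1, the anchoring fibril chain, stood at -0.21 in LGI 9, and the other LGI mice lay between -0.60 and -0.43. In LGI 9, the mouse with 3 of the 6 values, a list of 3 ciliated cell genes averaged 1.14, the highest of all mice, and its part in these values was not tested.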

How the results depend on the processing

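Precision is limited by the number of mice, by 1 array each, by probes of the same gene that disagree, and by 7 chains with arrays not above background. Settings that combine the 15 arrays with another choice, and leaving out each of those 15 mice, were chosen after seeing the data. Under 36 alternatives over 17 arrays the differences of Col1a1, Col2a1, Col3a1, Col5a1, Col5a2, Col5a3, Col4a1, Col4a2, Col6a1, Col6a2, Col6a3 and Col8a1 kept their sign, as they did under 21 over 15 arrays. Under the alternatives that held them, Col14a1 and Col23a1, higher in HGI, and Col6a4, lower in HGI, kept theirs too. Most alternatives used the same probe of a gene, so a kept sign does not settle the direction where probes disagreed, as for Col2a1 and Col3a1. For results that changed below, the cause was not tested.

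Chains with an unadjusted p under 0.05 numbered 2 over 17 arrays and 12 without HGI 9 and HGI 10, without LGI 9 as well, and with array weights. The shares of all genes at that criterion were 7.74%, 7.79%, 7.16% and 9.78%. Chains at it numbered 1 with Cy5 alone, exact permutation, scaling between arrays, median centring, no background correction, no filter on dim probes, scan order (earlier or later) as a block, the scanner's processed signals, detection on all 17 arrays, and in the earlier or later scans alone. Permutation aside, the shares of all genes there ran from 3.15% in the later scans to 9.35% with scaling between arrays. Leaving out 1 mouse gave 0 chains (without LGI 2 or LGI 4) to 5 (without HGI 10), with 5.91% to 9.00% of all genes. Without HGI 9 and HGI 10 there were 10 to 15 on leaving out 1 more mouse (6.08% to 9.74% of all genes), and 5 in the later scans (3.70%). Other settings without those 2 gave 9 chains in the earlier scans (6.15% of all genes), 17 with median centring (10.7%) and 12 with Cy5 alone (7.26%). There were 12 with the scanner's processed signals (6.60%) and 11 of 28 in the authors' deposited values (6.60%). Genes called over the whole table numbered 1 with array weights, 1 with Cy5 alone, 0 to 3 on leaving out 1 mouse (3 without LGI 7), and 0 to 11 on leaving out 1 of the 15 (11 without HGI 7, 2 without LGI 7). Over 15 arrays the fibrillar median was 0.37 with median centring, and the type IV median was 0.36 with the scanner's processed signals and -0.02 in the authors' deposited values.

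Same-numbered mice of the 2 diets form 7 pairs, whose deviations correlated at -0.38 to 0.26, with 3 of 7 over 0.1. The labels do not say what the number stands for, and these values cannot tell whether such mice share more than it. With the number as a replicate block over those 14 arrays, 4 chains had an unadjusted p under 0.05 (6.45% of all genes), against 3 with no block (6.68%). Col11a1 differed by 0.00084 in both. Over all 17 arrays Col4a5 and Col4a6 correlated at -0.12, and Col1a1 correlated at 0.63 with Col4a1 and 0.55 with Lox, both then past the threshold.

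Differences that changed sign follow, as HGI minus LGI. With Cy5 alone it was 0.0087 for Col27a1, 0.00074 for Col15a1, 0.033 for Col13a1 and 0.017 for Col25a1 over 17 arrays. With Cy5 alone it was -0.045 for Col11a1, 0.019 for Col13a1, 0.028 for Col25a1 and 0.032 for Col7a1 over 15 arrays. With array weights it was 0.051 for Col1a2, 0.017 for Col11a1, -0.030 for Col11a2, 0.0042 for Col27a1 and 0.030 for Col15a1 over 17 arrays. With scaling between arrays it was -0.013 for Col9a2 over 17 arrays. With the mean of all probes it was 0.016 for Col27a1 and -0.0081 for Col4a4 over 17 arrays. With median centring it was 0.0093 for Col1a2 over 17 arrays. With median centring it was -0.0080 for Col11a1 over 15 arrays. In the authors' deposited log2 values it was 0.10 for Col11a1, 0.0068 for Col27a1, -0.072 for Col4a4, -0.14 for Col4a5, -0.033 for Col9a2, -0.083 for Col22a1 and 0.073 for Col8a2 over 17 arrays. In the authors' deposited log2 values it was -0.10 for Col4a4, -0.062 for Col4a5, -0.023 for Col4a6, -0.056 for Col9a2, -0.17 for Col22a1, 0.083 for Col8a2, -0.0061 for Col15a1, -0.012 for Col18a1 and 0.011 for Col7a1 over 15 arrays. In the earlier scans it was -0.10 for Col11a2, 0.0038 for Col24a1 and -0.025 for Col16a1. In the earlier scans it was -0.043 for Col11a1, -0.095 for Col11a2, -0.021 for Col27a1 and -0.050 for Col18a1 without HGI 9 and HGI 10. In the later scans it was 0.016 for Col11a1 and 0.0031 for Col25a1. In the later scans it was -0.089 for Col24a1, -0.0080 for Col4a6, -0.0092 for Col9a2 and 0.0028 for Col25a1 without HGI 9 and HGI 10. With the scanner's processed signals it was 0.028 for Col8a2 and 0.075 for Col13a1 over 17 arrays. With the scanner's processed signals it was -0.0031 for Col27a1 and 0.0021 for Col13a1 over 15 arrays. Without HGI 9 and HGI 10 it was 0.13 for Col1a2, 0.020 for Col11a1, 0.034 for Col24a1, 0.0084 for Col27a1, 0.066 for Col15a1, 0.0068 for Col18a1 and -0.079 for Col7a1. Without LGI 9 as well it was 0.18 for Col1a2, 0.041 for Col11a1, 0.0077 for Col27a1, -0.0067 for Col9a2, 0.059 for Col8a2, 0.049 for Col15a1, 0.021 for Col18a1 and -0.043 for Col7a1. Leaving out 1 mouse of 17 gave -0.11 to 0.027 for Col1a2, -0.062 to 0.0076 for Col11a1, -0.058 to 0.060 for Col11a2, -0.0069 to 0.052 for Col9a2, -0.22 to 0.060 for Col8a2, -0.078 to 0.021 for Col15a1 and -0.10 to 0.026 for Col13a1. Leaving out 1 of 15 gave -0.030 to 0.048 for Col11a1, -0.056 to 0.10 for Col11a2, -0.019 to 0.073 for Col24a1, -0.022 to 0.027 for Col27a1, -0.0065 to 0.051 for Col4a6, -0.021 to 0.045 for Col9a2, -0.024 to 0.027 for Col22a1, -0.24 to 0.059 for Col8a2 and -0.033 to 0.048 for Col18a1.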
